A study of Mus musculus with 16 samples.

Results

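The IκB kinases (IKKs) and their relatives are a family of 5 genes: Chuk (IKKα), Ikbkb (IKKβ), the regulatory subunit Ikbkg (NEMO), Ikbke (IKKε) and Tbk1. They were chosen by name, and each gene was read from the probe set that carries only its symbol, the one with the highest mean where there were several. In this way 4 of the 5 genes were measured, out of 18820 genes on the arrays, each by a single probe set. Chuk was paired with no probe set in the annotation used here and was not analysed here.

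RNA came from whole livers of 7-day-old male mice on a mixed C57/BL6 - SV129Ola background, with 4 animals and 4 one-colour Affymetrix whole-transcript arrays in each of 4 genotypes. The first genotype, TRAF2/Casp-8/IKKbetaLPC-KO (called IKKβ triple KO), lacks Traf2, caspase-8 and Ikkβ in liver parenchymal cells through floxed alleles and the alfp-Cre transgene. The second, TRAF2/Casp-8LPC-KO/RIPK3-/- (RIPK3 triple KO), carries the same conditional deletions of Traf2 and caspase-8 together with a constitutive deletion of Ripk3. The third, TRAF2/Casp-8LPC-KO (double KO), carries the 2 conditional deletions alone, and WT animals were littermates with the floxed alleles but without Cre. Only Cre-expressing parenchymal cells lose the floxed genes, so endothelial, Kupffer and blood cells of the same liver keep them. In whole tissue, fewer cells of a type and less RNA per cell cannot be told apart.

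In the canonical pathway, IKKα and IKKβ bind to NEMO, and IKKβ phosphorylates IκB proteins, which are then degraded and release NF-κB dimers into the nucleus. In the non-canonical pathway the kinase NIK activates IKKα, which leads to processing of the NF-κB precursor encoded by Nfkb2. TBK1 and IKKε are related kinases that work with other adaptors and phosphorylate the interferon regulatory factors IRF3 and IRF7. In liver parenchymal cells, IKK activity is known for protecting against cell death downstream of tumour necrosis factor receptors.

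Promoter sequence was read from RefSeq (GRCm38.p6) for the kinase that was higher in double KO and RIPK3 triple KO livers than in WT, Ikbke, and for Nfkb2 and Nfkbie, a pair of pathway genes picked after their values were seen because they changed most among the kinases' substrates. Windows of 250 bases before to 50 after a gene's start were searched on both strands for the κB consensus motif, which is printed in capitals, and matches that overlap each other were all counted. Each sequence shown ends at the base before the start. Ikbke is at chr1:131279564-131279813 on the minus strand, Nfkb2 at chr19:46304637-46304736 on the plus strand and Nfkbie at chr17:45555550-45555699 on the plus strand.
Ikbke: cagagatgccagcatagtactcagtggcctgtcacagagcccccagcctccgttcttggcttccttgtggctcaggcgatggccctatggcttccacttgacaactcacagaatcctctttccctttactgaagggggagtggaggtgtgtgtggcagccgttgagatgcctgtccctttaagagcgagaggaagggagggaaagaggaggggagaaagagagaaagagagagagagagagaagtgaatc
Nfkb2: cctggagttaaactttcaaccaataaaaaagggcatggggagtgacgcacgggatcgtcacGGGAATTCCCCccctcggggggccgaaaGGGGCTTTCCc
Nfkbie: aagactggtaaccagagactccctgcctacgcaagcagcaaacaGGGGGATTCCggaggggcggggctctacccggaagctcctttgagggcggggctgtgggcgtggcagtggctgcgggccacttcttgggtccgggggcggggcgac
RefSeq lists 3 windows for Nfkb2, and the one shown is that with the most matches. The consensus was found at 3 places in it, where 2 overlap, and at 2 places and 1 place in the other Nfkb2 windows. It was found at 1 place in the Nfkbie window and at none in the Ikbke window. It occurred in 4.51% of all 32851 windows, and in 0 of the 7 windows listed for Chuk (1), Ikbkg (4), Ikbke (1) and Tbk1 (1). These counts describe letters in a window and were set against no binding data.

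The arrays were first checked at the targeted genes. Casp8 lay between 8.50 and 9.11 on the log2 scale over the 12 knockout arrays, against 9.76 to 10.07 in WT. Ripk3 lay between 4.07 and 4.40 in RIPK3 triple KO livers, against 5.62 to 6.42 in the other 3 genotypes. Traf2 went against its label: its probe set read 6.87 to 6.92 in IKKβ triple KO, 7.18 to 7.53 in RIPK3 triple KO and 7.07 to 7.44 in double KO livers, against 6.21 to 6.40 in WT. Whether that probe set lies inside the floxed part is not given in the sources used here, so every direction below is that of the arrays labelled with each genotype. The 5 hepatocyte marker genes measured averaged between 12.21 and 12.58 on every array. The position code in the array names has the number 5 for IKKβ triple KO and WT arrays and the number 7 for RIPK3 triple KO and double KO arrays. Position and genotype therefore cannot be told apart in IKKβ triple KO against double KO or RIPK3 triple KO, or in either of these against WT. The other 2 comparisons stay within a number but differ in the letters of the code. One WT array, replicate 1, stands apart for leukocyte genes. Calls of pathway genes and pathway list counts described below that differ without it are given in the same paragraph. For Ikbke they are given in a separate paragraph. Calls of cell type markers were not examined without it.

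**Figure D1:**
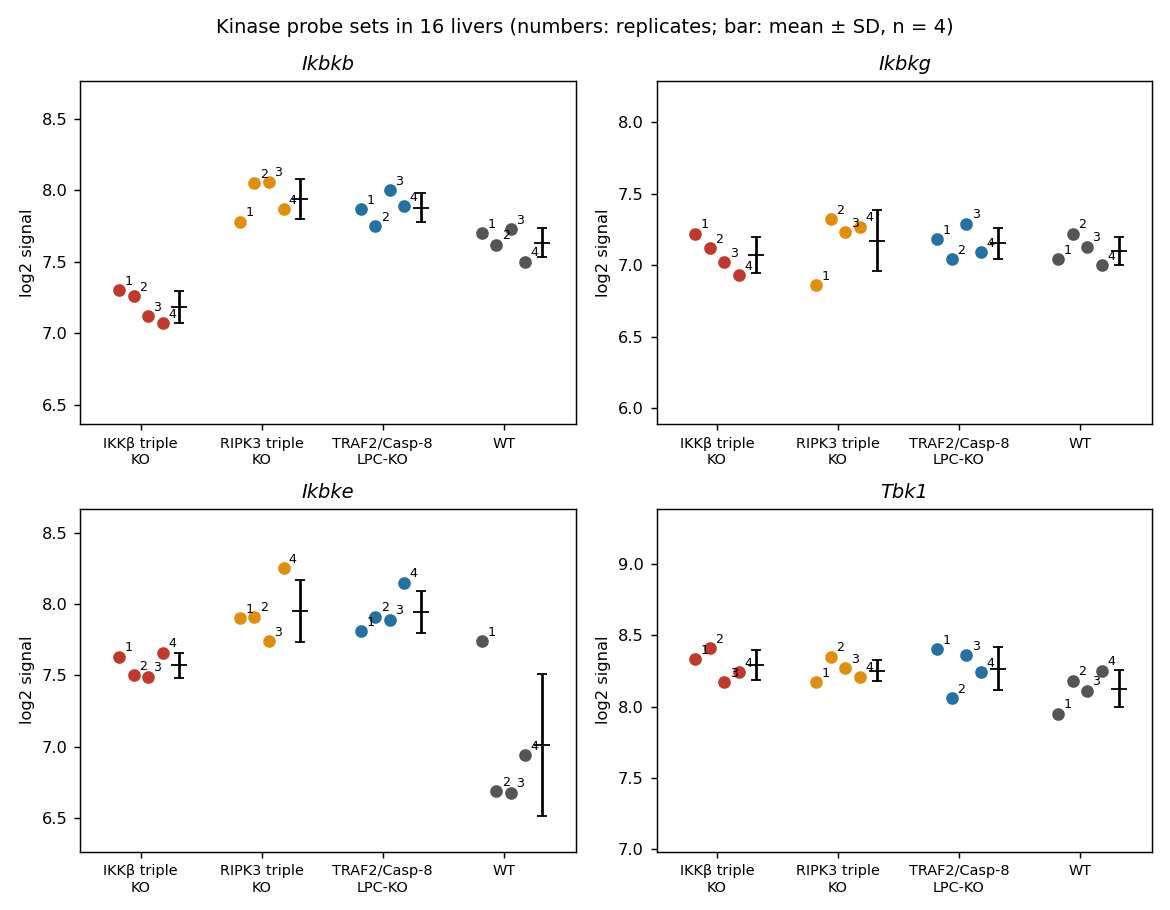
Log2 signal of the 4 measured kinase genes on each array, with 1 point per animal, and the mean and SD of 4 animals per genotype. Ikbkb points of IKKβ triple KO livers lie below all others, and for Ikbke 1 WT animal at 7.74 lies apart from the other WT animals.

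Ikbkb, the catalytic subunit that was targeted in 1 genotype, had a lower signal in IKKβ triple KO livers than in any other genotype. Its log2 signal was 7.30, 7.26, 7.12 and 7.07 in the 4 IKKβ triple KO livers, 7.78, 8.05, 8.06 and 7.87 in RIPK3 triple KO, 7.87, 7.75, 8.00 and 7.89 in double KO, and 7.70, 7.62, 7.73 and 7.50 in WT. No IKKβ triple KO liver reached the lowest value of any other genotype. The means were 7.19 ± 0.11 in IKKβ triple KO, 7.94 ± 0.14 in RIPK3 triple KO, 7.88 ± 0.10 in double KO and 7.64 ± 0.10 in WT (SD, n = 4 each).

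Against double KO livers, the genotype that differs from it by the Ikkβ deletion, Ikbkb fell by 0.69 on the log2 scale in IKKβ triple KO livers (95% interval -0.88 to -0.50, limma adjusted p = 0.00137). That is 1.62-fold lower, a remaining signal of 0.619 of the double KO level. It was the only one of the 4 kinases called in this comparison, where 1.02% of all genes were called in either direction, and it was ranked 36 by p among the 18820 genes. Against RIPK3 triple KO livers it fell by 0.75 (95% interval -0.95 to -0.56, limma adjusted p = 0.000598), or 1.69-fold, in a comparison with 2% of genes called. Ikbkb was again the only kinase called there.

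Against WT the Ikbkb difference was -0.45 in IKKβ triple KO livers (95% interval -0.64 to -0.26). It did not pass the threshold (limma adjusted p = 0.175), although the groups did not overlap and it was ranked 29 by p among all genes. Only 0.0372% of genes were called in that comparison, and 0 of the 4 kinases were among them at an adjusted p, while Ikbkb and Ikbke had unadjusted limma p-values of 0.000164 and 0.00998. Ikbkb in WT stood between the 2 levels: its differences from WT were 0.24 in double KO (limma adjusted p = 0.215) and 0.30 in RIPK3 triple KO (limma adjusted p = 0.105), both without overlap of the groups and neither called. Ikbkb was thus 1.62-fold lower against double KO, and its difference against WT was 1.37-fold. Which exon the probe set reads relative to the floxed part is not given in the sources used here.

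In order of level, Ikbkb was highest in RIPK3 triple KO, then double KO, then WT, then IKKβ triple KO. The first neighbours differed by 0.06 (95% interval -0.13 to 0.25, limma adjusted p = 0.858), within their spread. Non-overlap of this kind was seen for 2 of the 4 kinases between IKKβ triple KO and double KO livers and for 2 between IKKβ triple KO and RIPK3 triple KO, in both cases Ikbkb and Ikbke. Among all genes, 7.48% and 9.01% did not overlap in these comparisons.

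**Figure D2:**
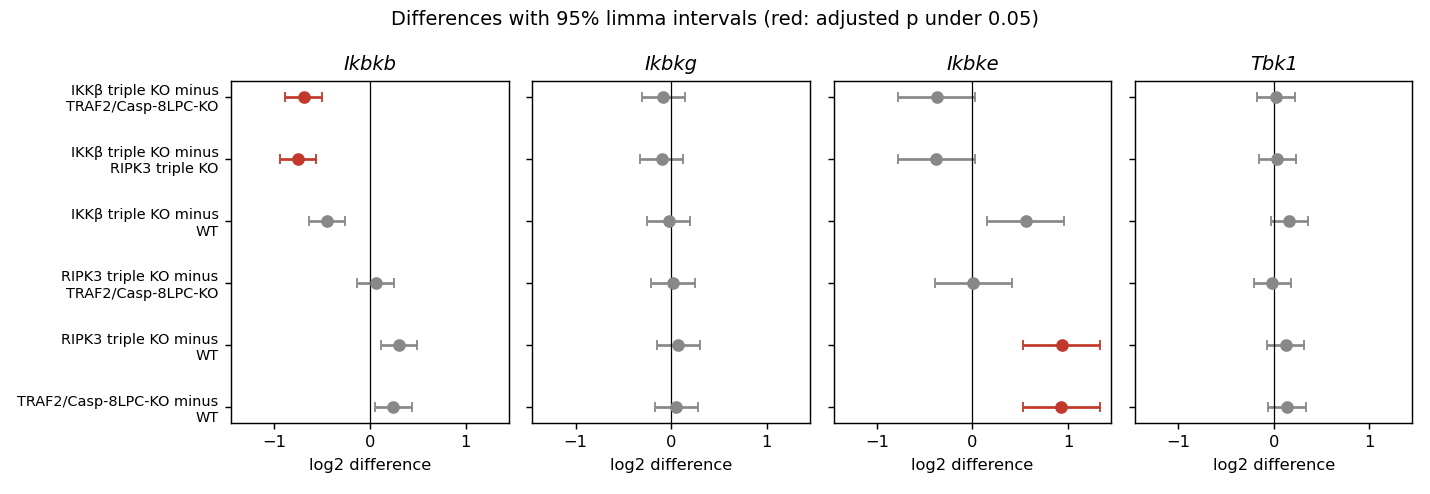
Log2 differences of the 4 kinase genes in the 6 comparisons with 95% intervals from the limma model of 16 arrays. Ikbkb lies at -0.69 and -0.75 in IKKβ triple KO against double KO and RIPK3 triple KO, and Ikbke at 0.93 and 0.94 in double KO and RIPK3 triple KO against WT.

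Ikbkg, which encodes NEMO, the subunit that binds ubiquitin chains and holds the kinases in the complex, had nearly the same mean level in the 4 genotypes. The values were 7.22, 7.12, 7.02 and 6.93 in IKKβ triple KO livers, 6.86, 7.32, 7.23 and 7.27 in RIPK3 triple KO, 7.18, 7.04, 7.29 and 7.09 in double KO, and 7.04, 7.22, 7.13 and 7.00 in WT. The groups overlapped in all 6 comparisons. Differences ran from -0.10 to 0.07, with limma adjusted p-values of 0.730 to 0.988. The 95% intervals of the 6 differences reached from -0.33 to 0.30, so a change of more than 1.25-fold lay outside each of them. The means were 7.07 ± 0.13 in IKKβ triple KO, 7.17 ± 0.21 in RIPK3 triple KO, 7.15 ± 0.11 in double KO and 7.10 ± 0.10 in WT (SD, n = 4 each), and no neighbours in that order differed beyond their spread.

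Ikbke, the inducible relative that is best known from immune cells, was higher in double KO and RIPK3 triple KO livers than in WT. The signal was 7.63, 7.50, 7.49 and 7.66 in IKKβ triple KO livers, 7.90, 7.91, 7.74 and 8.25 in RIPK3 triple KO, 7.81, 7.91, 7.89 and 8.15 in double KO, and 7.74, 6.69, 6.68 and 6.94 in WT. Of the 4 WT livers, 3 lay below every knockout liver, and the remaining one, replicate 1, lay above all IKKβ triple KO values and just above the lowest RIPK3 triple KO value. The means were 7.57 ± 0.09 in IKKβ triple KO, 7.95 ± 0.22 in RIPK3 triple KO, 7.94 ± 0.15 in double KO and 7.01 ± 0.50 in WT (SD, n = 4 each).

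Ikbke rose by 0.93 in double KO livers against WT (95% interval 0.53 to 1.33, 1.90-fold, limma adjusted p = 0.0168), without overlap of the groups. It was the only one of the 4 kinases called, where 3.31% of all genes were called, and was ranked 342 among genes by p. In RIPK3 triple KO livers it rose by 0.94 (95% interval 0.53 to 1.34, 1.91-fold, limma adjusted p = 0.0172), where 3.11% of genes were called, and the groups overlapped through WT replicate 1. These comparisons share their WT animals. Groups did not overlap for 2 of the 4 kinases in double KO against WT (11.6% of all genes), for 1 in RIPK3 triple KO against WT (9.08%) and for 1 in IKKβ triple KO against WT (3.92%).

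In IKKβ triple KO livers Ikbke differed from WT by 0.56 (95% interval 0.15 to 0.96, limma adjusted p = 0.672), which did not pass. All 4 IKKβ triple KO values lay below all double KO and all RIPK3 triple KO values, but the differences of -0.37 and -0.38 did not pass either (limma adjusted p = 0.602 and 0.366). Double KO and RIPK3 triple KO differed by 0.01 (95% interval -0.40 to 0.41, limma adjusted p = 0.994). Of the 4 kinases 0 were called between these genotypes by limma, 0 also at an unadjusted p under 0.05, where 0.329% of genes were called, and 0 had groups that did not overlap, against 6.87% of genes. The order of Ikbke levels was therefore RIPK3 triple KO, double KO, IKKβ triple KO and WT, and no pair of neighbours in it differed past the threshold.

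The Ikbke calls depend on single arrays. Without WT replicate 1 the differences from WT were 0.80 in IKKβ triple KO, 1.18 in RIPK3 triple KO and 1.17 in double KO livers, with limma adjusted p-values of 0.0430, 0.000101 and 0.000152, so that all 3 passed. Without WT replicate 2, 3 or 4 both calls were lost, at adjusted p-values of 0.0511 to 0.0631, and the double KO call was also lost without double KO replicate 4 (0.0648). The name of that double KO array has the prefix G183, where all other arrays have G182. A model of only the 2 genotypes compared gave adjusted p-values of 0.103 and 0.124. The residual SD of Ikbke, 0.285, was larger than that of 90.3% of genes, against 0.114 for Ikbkb.

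**Figure D3:**
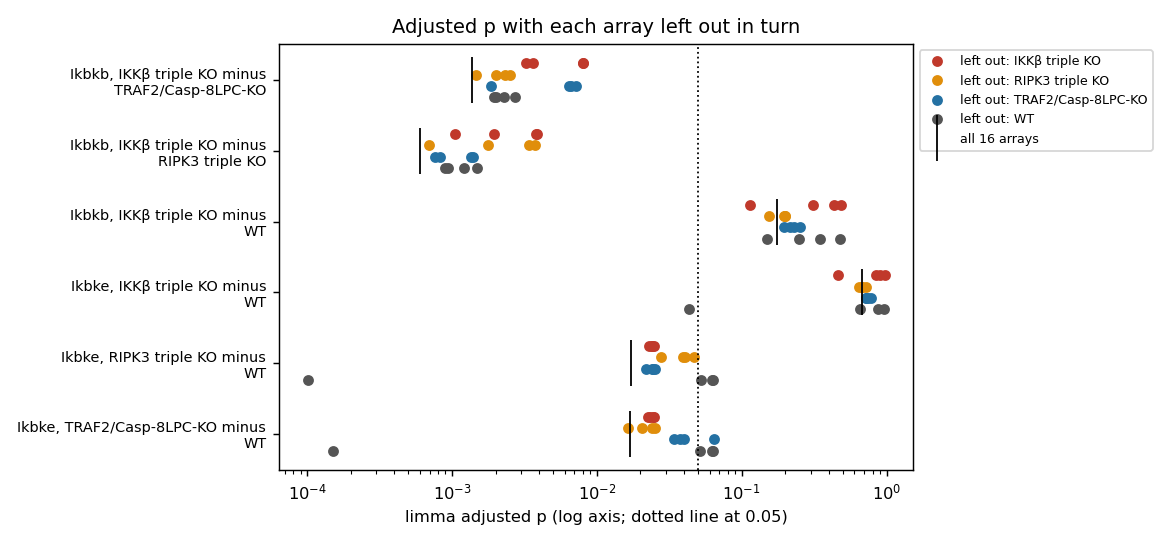
Adjusted p from limma (log axis) with each of the 16 arrays left out in turn, coloured by the genotype of the array left out, for Ikbkb in IKKβ triple KO against the other genotypes and for Ikbke in each knockout genotype against WT. Bars mark all 16 arrays and the dotted line is at 0.05; the Ikbkb points against double KO and RIPK3 triple KO stay left of it, at 0.000695 to 0.00801, and those of Ikbke lie on both sides.

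Leukocyte markers were high on the WT array that stands apart, but not on that array alone. The mean log2 signal of the neutrophil markers was 9.18 in RIPK3 triple KO replicate 4, against 7.21 to 7.96 in its other replicates. In double KO replicate 4 it was 9.92, against 8.47 to 9.03. In each genotype the array with the highest neutrophil mean also had the highest Ikbke value. For Kupffer cell and macrophage markers this held in RIPK3 triple KO and WT only. Of all genes, 0.0372% to 3.31% were called in the 6 comparisons. All 6 Kupffer cell and macrophage markers were measured, and 0 were called by limma in any of these comparisons, with 0 also at an unadjusted p under 0.05. Their summed signal was 4229 to 4636 in IKKβ triple KO, 4022 to 5730 in RIPK3 triple KO and 4062 to 4564 in double KO livers, against 3643 to 6609 in WT, where the highest value is that of replicate 1. Neutrophil marker signal summed to 3727 to 7155 in IKKβ triple KO, 1386 to 4651 in RIPK3 triple KO and 3178 to 7057 in double KO livers, against 4050 to 10535 in WT, again highest in replicate 1. The median difference of the 6 neutrophil markers from WT was -1.31 in RIPK3 triple KO and -0.32 in double KO livers. None was called by limma in any of the 6 comparisons, although in some of them up to 6 of the 6 had an unadjusted p under 0.05. No marker is read as absent, because the deposited values carry no detection call. The part of these cells in the Ikbke differences was not tested.

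Some markers of other cell types also differed between the genotypes. Of 4 measured cholangiocyte markers, 2 rose in double KO and 2 in RIPK3 triple KO livers against WT (2.17% and 1.94% of all genes). These were Epcam by 0.79 and 0.67 (limma adjusted p = 0.0187 and 0.0461) and Sox9 by 1.31 and 1.10 (limma adjusted p = 0.000147 and 0.00072). The other 2, Krt7 and Krt19, were called in no comparison. Sox9 fell in IKKβ triple KO livers by 1.12 against double KO and by 0.91 against RIPK3 triple KO (limma adjusted p = 0.00137 and 0.00612). In these comparisons 0.903% and 1.38% of all genes were lower. The summed signal of the 4 markers was 137 to 227 in IKKβ triple KO, 250 to 306 in RIPK3 triple KO and 233 to 287 in double KO livers, against 143 to 197 in WT. Of 6 T and NK cell markers, Gzma fell in RIPK3 triple KO livers by 0.70 against WT and by 0.62 against double KO (limma adjusted p = 0.00448 and 0.0383). In these comparisons 3.11% and 0.329% of all genes were called in either direction. The part of these cell types in the kinase differences and in those of the pathway genes was not tested.

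Tbk1, the constitutively expressed relative, overlapped between all genotypes. The values were 8.33, 8.41, 8.17 and 8.24 in IKKβ triple KO livers, 8.17, 8.35, 8.27 and 8.21 in RIPK3 triple KO, 8.40, 8.06, 8.36 and 8.24 in double KO, and 7.95, 8.18, 8.11 and 8.25 in WT. The means were 8.29 ± 0.10 in IKKβ triple KO, 8.25 ± 0.08 in RIPK3 triple KO, 8.27 ± 0.15 in double KO and 8.13 ± 0.13 in WT (SD, n = 4 each). The 6 differences ran from -0.01 to 0.16 (limma adjusted p = 0.551 to 0.978). Their 95% intervals reached from -0.21 to 0.36, so a change of more than 1.28-fold lay outside each of them. The order of means was IKKβ triple KO, double KO, RIPK3 triple KO and WT, and no neighbours differed beyond their spread.

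Correlations between the kinases over the 16 arrays are given as a description of arrays that share genotypes. Ikbkb and Ikbkg had a Pearson's r of 0.50 and a Spearman's rho of 0.59, with an r of 0.75 after the genotype means were subtracted. Ikbkb and Ikbke had an r of 0.35 and a rho of 0.62, with an r of -0.04 after subtraction. Ikbke and Tbk1 had an r of 0.15, and of -0.46 after subtraction. Ikbkg and Tbk1 had an r of 0.44, and of 0.51 after subtraction. For Ikbkb and Tbk1 these were 0.02 and 0.38, and for Ikbkg and Ikbke 0.10 and -0.16. The genes closest to each kinase were ranked by r over 16434 genes. For Ikbke they were Sirpa, an inhibitory receptor of myeloid cells (r = 0.92, rho = 0.82), Nfkb2 (r = 0.91, rho = 0.90) and Tapbp, a chaperone of class I antigen loading (r = 0.90, rho = 0.81). After the genotype means were subtracted these were 0.80, 0.75 and 0.65.

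Sirpa had the same outlying animal as Ikbke, with 10.04 in WT replicate 1 and 9.16 to 9.22 in the other WT livers. Tapbp was higher than in WT by 0.68 in double KO and by 0.82 in RIPK3 triple KO livers. The closest genes were picked for their likeness to a kinase on these same arrays. Their differences between genotypes are therefore a description and no separate evidence. For Ikbkb the closest genes were Smarca2, an ATPase of SWI/SNF chromatin remodelling, the metalloprotease gene Adamts7 and Snap47 (r = 0.90, 0.89 and 0.89). Their r after subtraction was 0.56, 0.40 and 0.46. Smarca2 was lower in IKKβ triple KO livers by 0.46 against RIPK3 triple KO (limma adjusted p = 0.0239). Its difference of -0.41 against double KO did not pass (limma adjusted p = 0.0638). Phc3, Kin and Igbp1 were closest to Ikbkg (r = 0.88, 0.86 and 0.84), and Cwc22, Dusp16 and Ptpn2 to Tbk1 (r = 0.88, 0.87 and 0.86). For these 6 genes r was between 0.84 and 0.88 after subtraction.

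**Figure D4:**
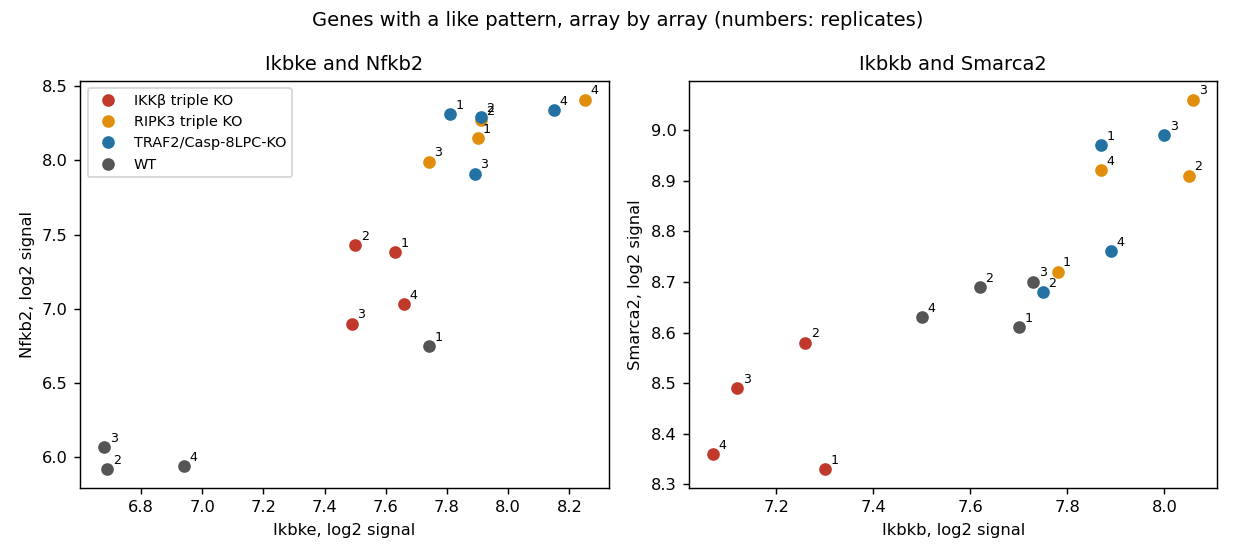
Log2 signal of Nfkb2 against Ikbke and of Smarca2 against Ikbkb, with 1 point per animal, coloured by genotype and numbered by replicate. WT replicate 1, at 7.74 for Ikbke and 6.75 for Nfkb2, is the highest WT point on both axes of the Ikbke panel.

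Upstream of the kinases, 19 of 20 listed IKK activators were measured. In double KO livers 4 were higher than in WT and 0 lower, against 2.17% of all genes higher. They were Birc2 and Birc3, which encode the ubiquitin ligases cIAP1 and cIAP2, Map3k14, which encodes NIK, and Traf2. Traf2 is itself a targeted gene whose probe set went against its label, so its calls are not read as a rise of a working activator. Birc2 was 7.84, 7.66, 7.92 and 7.88 in double KO livers, against 6.99, 6.73, 6.57 and 6.54 in WT, a rise of 1.12 (limma adjusted p = 0.000108). Birc3 rose by 1.69 and Map3k14 by 0.54 (limma adjusted p = 0.000427 and 0.0306). The same 4 genes were higher in RIPK3 triple KO livers, against 1.94% of all genes, and without WT replicate 1 the kinase gene Map3k8 was a further one. In IKKβ triple KO livers Birc2 and Birc3 fell by 0.91 and 1.14 against double KO (limma adjusted p = 0.00145 and 0.0186), where 0.903% of genes were lower. The list's median stayed near that of all genes, at 0.07 in double KO against WT and -0.02 in IKKβ triple KO against double KO.

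Among the partners of the complex, 5 of 6 were measured. Against WT, 1 rose in double KO and 2 in RIPK3 triple KO livers, where 2.17% and 1.94% of all genes were higher. In these comparisons 0 of the 5 fell, and the list's medians were 0.16 and 0.07. Tnip1, which encodes a ubiquitin-binding inhibitor of NF-κB signalling, rose by 1.15 in double KO and by 0.92 in RIPK3 triple KO livers against WT (limma adjusted p = 0.00455 and 0.0223). Erc1, which encodes the complex component ELKS, rose by 0.39 in RIPK3 triple KO (limma adjusted p = 0.0366), a call that was lost without WT replicate 1 (0.0702). Without that array Tnip1 fell by 0.85 in IKKβ triple KO against double KO livers (limma adjusted p = 0.0419), a difference not called with all arrays. Of 7 measured brakes on the kinases, 1 rose against WT in double KO and in RIPK3 triple KO livers (2.17% and 1.94% of genes). It was Tnfaip3, which encodes the ubiquitin-editing enzyme A20, and it rose by 1.76 and 2.00 (limma adjusted p = 0.000365 and 0.000109). In IKKβ triple KO livers it differed from WT by 1.37 (limma adjusted p = 0.055), which did not pass, and by 1.59 without WT replicate 1 (limma adjusted p = 0.00599), which did.

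Of 7 measured IKK substrates of the NF-κB and IκB families, 4 rose in double KO livers against WT and 0 fell, where 2.17% of all genes were higher. The list's median was 1.16, against -0.01 over all genes. Nfkbie, which encodes IκBε, was 8.09, 7.94, 7.67 and 8.17 in double KO livers, against 6.12, 5.32, 5.39 and 5.10 in WT. That is a rise of 2.49 (limma adjusted p = 1.8e-05). Nfkb2 was 8.31, 8.29, 7.91 and 8.34 in double KO livers, against 6.75, 5.92, 6.07 and 5.94 in WT, a rise of 2.05 (limma adjusted p = 1.8e-05). Relb, which encodes the partner of the processed Nfkb2 product, rose by 1.71 and Nfkbia, which encodes IκBα, by 1.16 (limma adjusted p = 0.00639 and 0.0457).

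The pattern in RIPK3 triple KO livers was close in count, with 4 genes higher than WT, 0 lower and a median of 1.05, where 1.94% of all genes were higher. Nfkbie, Nfkb2 and Relb rose by 2.40, 2.04 and 1.83, and the fourth gene was Nfkbib, which encodes IκBβ, at 0.64 (limma adjusted p = 0.0231). Without WT replicate 1 there were 5, with Nfkbia added. In IKKβ triple KO livers 2 of the 7 fell against double KO, where 0.903% of genes were lower and the list's median was -0.22: Nfkbie by 1.84 and Nfkb2 by 1.03 (limma adjusted p = 0.000841 and 0.0126). Against RIPK3 triple KO the same genes fell by 1.75 and 1.02 (limma adjusted p = 0.00082 and 0.0107), where 1.38% of genes were lower. Nfkb2 was 7.38, 7.43, 6.90 and 7.03 in IKKβ triple KO livers, above every WT value, but the difference of 1.01 did not pass (limma adjusted p = 0.096). Without WT replicate 1 it passed (limma adjusted p = 0.00605). Nfkbie and Nfkb2 are also the genes whose promoter windows are shown above. Windows of the other substrates were not read one by one, so a link between the motif and these differences was not tested.

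Of 19 NF-κB response genes, 12 rose in double KO livers against WT with a median of 1.40, and 9 rose in RIPK3 triple KO livers with a median of 1.05, where 2.17% and 1.94% of all genes were higher. Without WT replicate 1 these counts were 13 and 10. In IKKβ triple KO livers 7 fell against double KO (0.903% of all genes) with a median of -0.64 over the list, among them the chemokine genes Ccl20 by 1.88 and Ccl2 by 1.26 and the lymphotoxin gene Ltb by 2.14 (limma adjusted p = 0.000391, 0.00229 and 0.000869). This list shares Nfkbie and others with the lists above. Against RIPK3 triple KO 6 fell (1.38% of all genes), with a median of -0.32. Ccl2 fell by 1.10 in RIPK3 triple KO against double KO (limma adjusted p = 0.0154). Against WT 1 gene of the list was higher in IKKβ triple KO livers, where 0.0266% of all genes were higher, and 3 were without WT replicate 1.

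On the side of TBK1 and IKKε, 0 of 10 measured adaptors and cargo receptors were called by limma in any of the 6 comparisons, and 0 had an unadjusted p under 0.05. Over all genes, 0.0372% to 3.31% were called in these comparisons. Sting1 and Cgas, of the cytosolic DNA sensing pathway, differed by 0.35 and 0.20 in double KO against WT (limma adjusted p = 0.469 and 0.662). Without WT replicate 1, Sting1 was called as higher in double KO livers. Of the 6 substrates and interferon-linked genes, Cxcl10 was higher in every knockout genotype than in WT. The other 5 were called against WT in no genotype. The list's median difference from WT was 0.67 in IKKβ triple KO, -0.088 in RIPK3 triple KO and -0.087 in double KO livers. Cxcl10 is also on the list of NF-κB response genes, where it was the 1 gene called in IKKβ triple KO livers against WT. Its signal was 10.50, 10.19, 9.0 and 9.28 in IKKβ triple KO, 9.16, 9.16, 8.80 and 10.14 in RIPK3 triple KO and 10.01, 9.98, 9.78 and 10.65 in double KO livers, against 7.58, 6.92, 6.69 and 7.15 in WT. It rose by 2.66, 2.23 and 3.02 in these genotypes (limma adjusted p = 0.00951, 0.00265 and 0.000171).

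The interferon-induced gene Ifit1 had a different order. It rose by 1.18 in IKKβ triple KO against double KO livers and by 1.37 against RIPK3 triple KO (limma adjusted p = 0.0128 and 0.00404). Irf7, a TBK1 substrate, rose by 0.93 in IKKβ triple KO against RIPK3 triple KO livers (limma adjusted p = 0.0388), and without WT replicate 1 it was also called against double KO. Against WT neither gene was called in IKKβ triple KO livers, with or without that array. The means in IKKβ triple KO and WT were 7.44 and 6.48 for Ifit1 and 8.07 and 7.36 for Irf7. Irf3 differed by 0.10 in double KO against WT (limma adjusted p = 0.668).

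**Figure D5:**
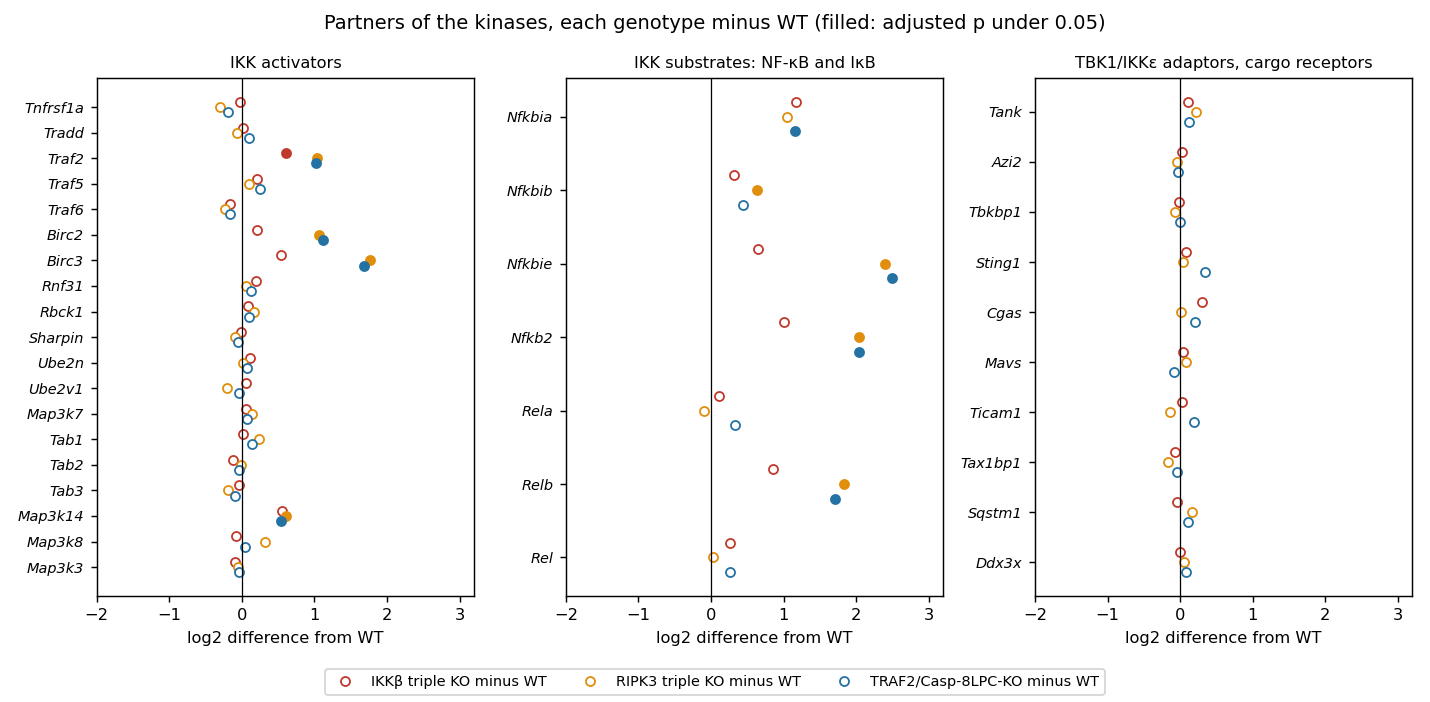
Log2 differences of IKKβ triple KO, RIPK3 triple KO and double KO livers from WT for the measured IKK activators, IKK substrates, and adaptors of TBK1 and IKKε, with filled points past the limma threshold. Nfkbie and Nfkb2 lie at 2.49 and 2.05 in double KO livers, and no adaptor point is filled.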

How the data were processed

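The authors deposited log2 values that they made with RMA, per the submitters' processing notes. No source used here gives the version or the array's genome build. All 16 value columns entered as deposited, and 0 were left out. Array medians ranged from 4.90 to 5.05. Precision is limited by the number of arrays, and p-values measure the spread between animals.

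A single linear model of the 4 genotypes was fitted to all 16 arrays with limma 3.58.1 (lmFit, then eBayes with no trend) under R 4.3.3, and tests were two-sided. Benjamini-Hochberg adjustment ran over 35556 probe sets, and a call means an adjusted p under 0.05. A fold is the power of 2 of a log2 difference. The procedure was tested on simulated data.

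The kinases and gene lists were chosen with earlier results of these data known. Named genes were the kinases, the targeted genes, up to 4 called members of each list by adjusted p (up to 2 where none passed), and the 3 genes most correlated with each kinase, other than predicted, clone-named, small RNA, olfactory and vomeronasal genes. Alternatives changed the variance model, the arrays, the scaling, the filter, blocks and a minimum fold. Matplotlib 3.10.9 in Python 3.11.15 drew the figures.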

Additional observations from a re-analysis of the deposited data

How the results depend on the processing

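Ikbkb stayed lower and past the threshold in IKKβ triple KO against double KO and against RIPK3 triple KO under every alternative except a minimum fold of 1.5, which left 0 kinases called in those comparisons and in double KO and RIPK3 triple KO against WT. A model of only the 2 genotypes left 0 in double KO and RIPK3 triple KO against WT. Centring arrays on their medians and array weights each gave 2 in RIPK3 triple KO against WT, adding Ikbkb (adjusted p = 0.0465 and 0.0464). With each array left out, kinases called ran from 0 to 1 in double KO, RIPK3 triple KO and IKKβ triple KO against WT. Probe sets called in IKKβ triple KO against double KO numbered 223, and 109 with 2 genotypes, 340 with 1 probe set per gene, 509 with array weights and 14 with the minimum fold (115 to 312 with each array left out). Against RIPK3 triple KO there were 567, and 232, 875 with weights and 24 with the minimum fold (197 to 938). In IKKβ triple KO against WT there were 7, and 1, 13 without the lowest of 3 brightness classes, 28 with 1 probe set per gene, 20 with weights and 1 with the minimum fold (4 to 13). Double KO against WT had 800, and 458, 1594 with weights and 45 with the minimum fold (420 to 902). RIPK3 triple KO against double KO had 94, and 40, 62 with the replicate block and 14 with the minimum fold (39 to 117). RIPK3 triple KO against WT had 845, and 328 and 50 with the minimum fold (425 to 1095). The cause was not tested, apart from the fewer samples or tests that some settings have by construction.

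Differences that turned sign were all near 0 and not called. Array weights gave -0.0189 for Ikbke in RIPK3 triple KO against double KO, and -0.0203 and -0.000291 for Tbk1 in IKKβ triple KO against double KO and RIPK3 triple KO. Tbk1 in RIPK3 triple KO against double KO was 0.0218 after quantile normalization and 0.0413 after centring. With each array left out, Ikbke in RIPK3 triple KO against double KO ran from -0.0934 to 0.0775 and Ikbkg from -0.0320 to 0.12. Ikbkg in IKKβ triple KO against WT ran from -0.0768 to 0.0213. Tbk1 ran from -0.0437 to 0.0673 in IKKβ triple KO against double KO, from -0.00303 to 0.0770 against RIPK3 triple KO, and from -0.0821 to 0.0289 in RIPK3 triple KO against double KO. Deviations of same-numbered animals correlated between -0.227 and 0.357, and 6 of 24 pairs were over 0.1, of which 3 are among the 4 of IKKβ triple KO against double KO (0.188, 0.166 and 0.172, and -0.0174 for the other). In no comparison were all 4 over 0.1, so the samples were not treated as paired. The replicate block changed no kinase call. Leaving out WT replicate 1 for the list counts was chosen after seeing the data. Each kinase has 1 probe set, so no other one could be tried.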
